A study of Mus musculus with 4 samples.

Results

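The Ly6 genes described here are 6 members of 1 gene family, Ly6g, Ly6m, Ly6d, Ly6e, Ly6a and Ly6c1, taken by symbol from the 32285 genes counted in single cells of the mouse colon. All 6 symbols were found. Cells of C57/BL6J adults were sequenced in 2 batches, each holding cells of 4 conditions mixed after tagging with hashtag antibodies, and flow-sorted for viability. The tags are named TG_DSS, TG_WT, Ctrl_DSS and Ctrl_WT. Read as words, TG_DSS is JUP-KO given DSS, TG_WT is untreated JUP-KO, Ctrl_DSS is wild type given DSS, and Ctrl_WT is untreated wild type. JUP is plakoglobin, a protein of cell junctions, and DSS (dextran sulfate sodium) is a chemical that injures the colon lining. By the antibody numbers in the labels' protocol, TG_WT and Ctrl_DSS would be exchanged, whereas TG_DSS and Ctrl_WT mean the same under either reading. Groups are therefore called by their tag names. In epithelial cells Jup, the targeted gene, was counted at 25.2 and 82.6 CPM under TG_DSS, 77.8 and 107 under TG_WT, 14.1 and 8.28 under Ctrl_DSS and 71.2 and 68.5 under Ctrl_WT in batches 1 and 2. Jup was thus lowest under Ctrl_DSS, whose name says wild type. Neutrophil-like cells, defined below by markers, numbered 13 and 258 under TG_WT, whose name says untreated, and 1 and 7 under Ctrl_DSS. Both orders are those the antibody numbers would give. Under TG_DSS, a knockout under either reading, Jup still reached 82.6 CPM in batch 2, so the reading was not settled from these counts. How the knockout was made, the dose of DSS, and how many mice stand behind a tag are not given in the sources used here, so p-values may measure only the spread between batches.

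Ly6 proteins are small, disulfide-rich proteins held at the cell surface by a lipid anchor, and several are used as antigens to tell mouse blood cells apart. Ly6g is the antigen by which mouse neutrophils are usually recognised. Ly6a, known as Sca-1, marks progenitor cells and vessels, and is known to be raised by interferon and in injured epithelium. Ly6e is an interferon-induced gene that limits the entry of some viruses, Ly6d marks early B cells, and Ly6c1 is 1 of the genes that encode the Ly6C antigen. The question asked of the data was where the members are counted in epithelium and leukocytes, and whether Ly6g in colonocytes, the absorptive cells of the colon surface, comes with other neutrophil transcripts.

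The batches gave 7158 and 6472 cells with a median of 12300.5 and 7090.5 UMIs (unique molecular identifiers, each standing for 1 captured molecule). Of the cell barcodes, 14 occurred in both batches. A droplet took the class whose marker list it held the largest share of, with at least 3 markers detected, and counted as mixed when lists of other compartments reached 3 as well. Epithelial cells took a subtype in the same way. That named 6018 and 4597 cells, while 921 and 1508 droplets held markers of several compartments and were left out unless stated. Hashtags labelled the classes unevenly: 82.8% and 75.5% of epithelial-like cells carried no called tag, against 16.4% and 2.50% of neutrophil-like cells. All levels below are UMIs of a gene per 1000000 UMIs summed over the cells of a class (CPM), with 1 value per batch. The dendritic-like name rests on few cells and none of its markers was among the 10 leading genes, so its values are given only where single cells matter. Their intervals, where given, are exact 95% Poisson or binomial intervals and cover counting error only. Since the members were chosen with their counts by cell type known, levels by class are a description and carry no test.

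The 6 genes lie on chromosome 15 of GRCm38 within a stretch that also holds Ly6i, Ly6c2 and Ly6g2. In GENCODE M21 all 6 are protein-coding. Ly6d spans chr15:74762056-74763620 on the minus strand, and Ly6m, listed there as 2010109I03Rik, spans chr15:74876987-74897021 on the minus strand. Ly6e spans chr15:74955051-74959905 on the plus strand. Ly6a spans chr15:74994877-74998031 and Ly6c1 chr15:75044018-75048830, both on the minus strand. Ly6g spans chr15:75155240-75159126 on the plus strand. The paralogs could blur a 3′ count where their ends share sequence. Only exact matches to the end of the longest transcript of each gene were searched, so near matches and introns are not covered. Of the 410 words of 91 bases in the last 500 bases of the Ly6c1 transcript, 34 also occurred in Ly6c2 transcripts (8.29%). None of the 410 words of Ly6g, Ly6m, Ly6d, Ly6e or Ly6a occurred in a transcript of another of these 9 genes.

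Ly6g was counted in colonocyte-like and in neutrophil-like cells at levels well above those of the other classes. It reached 166 CPM in batch 1 and 170 CPM in batch 2 in 2649 and 1752 colonocyte-like cells (168 ± 3.19, SD, n = 2). In 691 and 921 neutrophil-like cells it reached 132 and 117 CPM (125 ± 10.8, SD, n = 2). The batch ranges of these classes do not overlap, but the order was not the same within tags. Under TG_DSS, which labelled most neutrophil-like cells, Ly6g was at 101 and 68.3 CPM in colonocyte-like cells, against 132 and 111 CPM in neutrophil-like cells. Under TG_WT it was at 173 and 33.9 CPM in colonocyte-like cells, against 0 CPM in 13 neutrophil-like cells and 131 CPM in 258. In untagged cells it was at 178 and 213 CPM in colonocyte-like cells, against 184 and 178 CPM in neutrophil-like cells. The goblet-like cells, which secrete mucus, followed far below at 11.1 and 3.01 CPM. Crypt base and transit-amplifying-like cells, which divide and renew the lining, had 3.47 and 0.483 CPM, and enteroendocrine-like cells, which secrete hormones, 8.18 and 1.46 CPM. The 69 and 163 fibroblast-like cells held 0 Ly6g UMIs, which allows up to 14.1 and 5.43 CPM. Thinning to 2000 UMIs used only cells of at least that depth, 2515 and 1675 colonocyte-like and 493 and 758 neutrophil-like cells. Of these, 15.9% and 20.0% of colonocyte-like cells kept a Ly6g UMI, against 15.8% and 15.3% of neutrophil-like cells. Without thinning the shares were 28.4% and 33.9% of colonocyte-like cells at median depths of 15024 and 13586.5 UMIs. For neutrophil-like cells they were 19.2% and 20.1% at 2511 and 2996 UMIs. At the thinned depth goblet-like cells kept a Ly6g UMI in 1.68% and 0.575% of cells.

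**Figure D1:**
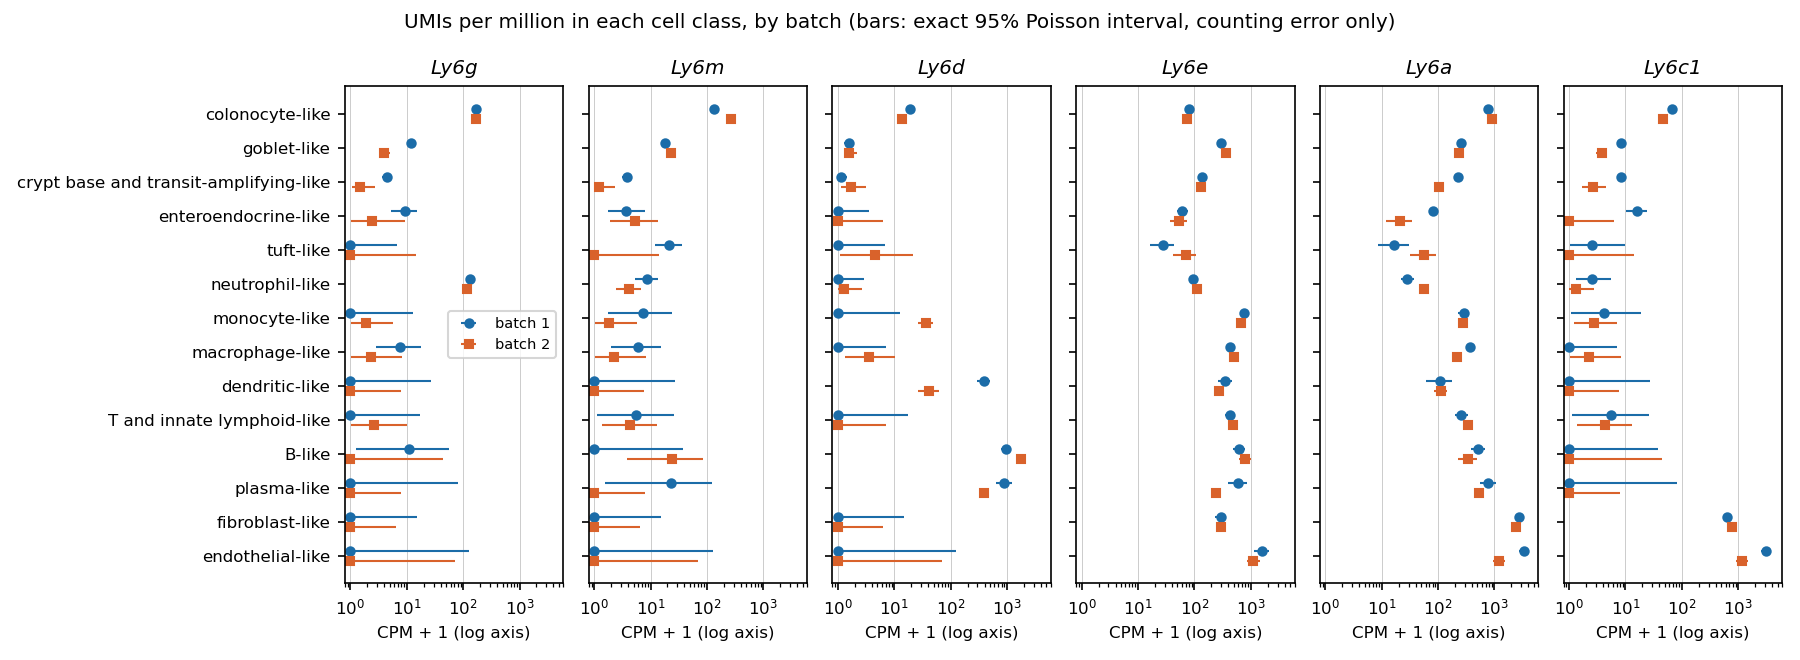
Level of each member (CPM + 1, log axis) in 14 cell classes, with circles for batch 1, squares for batch 2 and bars for exact 95% Poisson intervals. Ly6g is high in colonocyte-like (166 and 170 CPM) and neutrophil-like cells (132 and 117 CPM), and Ly6m is highest in colonocyte-like cells too, whereas Ly6d, Ly6e, Ly6a and Ly6c1 peak in other classes.

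Other neutrophil transcripts were rare in the colonocyte-like cells that remain when mixed droplets are left out. S100a9, a calprotectin subunit and the leading neutrophil transcript, stood at 27.7 and 47.8 CPM in colonocyte-like cells, against 104548 and 109311 CPM in neutrophil-like cells. Csf3r, the receptor for the neutrophil growth factor G-CSF, was at 0.227 and 0.179 CPM in colonocyte-like cells, against 686 and 696 CPM in neutrophil-like cells. Cxcr2, the chemokine receptor that guides neutrophils, was at 0.182 and 0.250 CPM in colonocyte-like cells and 415 and 483 CPM in neutrophil-like cells. Per 1000 S100a9 UMIs, the colonocyte-like cells held 5984 and 3563 Ly6g UMIs and the neutrophil-like cells 1.27 and 1.07. At the neutrophil-like ratio, the S100a9 found in colonocyte-like cells would come with 0.0351 and 0.0512 CPM of Ly6g. The measured Ly6g was 4728 and 3326 times that. Measured Ly6g also exceeded this amount in other classes and in free RNA, by 385 and 72.7 times in goblet-like cells, 121 and 12.5 times in crypt base and transit-amplifying-like cells and 18.2 and 16.5 times in free RNA. The leaving out of mixed droplets lowers S100a9 by construction, since the neutrophil markers define the mixture. With mixed droplets kept, the colonocyte-like cells held 185 and 118 Ly6g UMIs per 1000 S100a9 UMIs. Free RNA, counted in droplets too small to be cells, held 77.0 and 87.1 CPM of Ly6g and 23.1 and 17.6 Ly6g UMIs per 1000 S100a9 UMIs. Its part in the counts of each class was not tested.

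**Figure D2:**
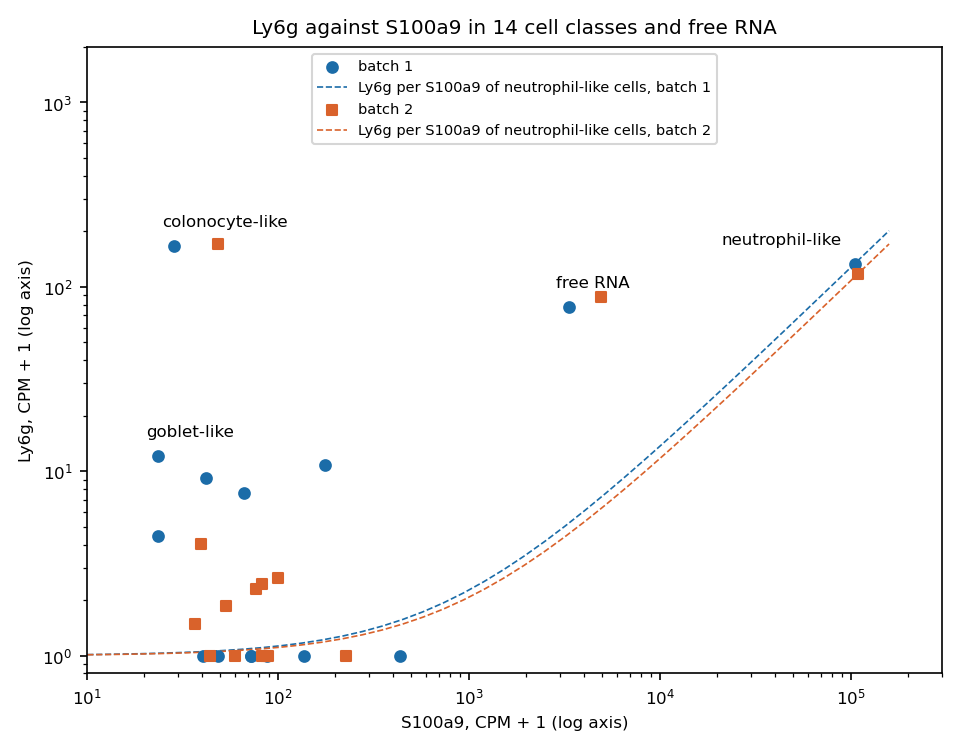
Ly6g against S100a9 (both CPM + 1, log axes) in 14 cell classes and in free RNA, with 1 point per batch. Dashed lines show the Ly6g that the neutrophil-like ratio gives at each S100a9 level. Colonocyte-like cells (166 and 170 CPM of Ly6g) and free RNA (77.0 and 87.1 CPM) lie above the lines, as do goblet-like, crypt base and transit-amplifying-like, enteroendocrine-like and macrophage-like cells at lower levels of Ly6g.

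Cell by cell, the share of colonocyte-like cells with any of the 12 other neutrophil markers was compared between cells with and without Ly6g. In this question mixed droplets were kept, which gave 2877 and 1954 cells. Of these, the 2726 and 1876 cells with at least 2000 UMIs were each thinned to 2000 UMIs. Another neutrophil transcript was found in 68 of 417 cells with Ly6g (16.3%, 95% interval 12.9 to 20.2) and in 375 of 2309 cells without (16.2%, 14.8 to 17.8) in batch 1. In batch 2 the counts were 71 of 354 cells with Ly6g (20.1%, 16.0 to 24.6) and 368 of 1522 without (24.2%, 22.0 to 26.4). These intervals overlap in both batches. With mixed droplets left out the shares were 13.8% with Ly6g and 10.6% without in batch 1, and 17.9% and 18.1% in batch 2, so the direction is not settled. Leaving out S100a8 and S100a9, which free RNA carries most of, the shares in batch 1 were 4.32% with Ly6g (2.58 to 6.74) and 6.37% without (5.40 to 7.44), and these intervals overlap. In batch 2 they were 4.52% with Ly6g (2.61 to 7.24) and 8.67% without (7.31 to 10.2), lower with Ly6g and without overlap. At least 3 of the 12 markers were held by 2.40% and 1.41% of cells with Ly6g, and by 5.02% and 5.91% of cells without. Without thinning these shares were 8.09% and 8.02% with Ly6g and 6.30% and 9.20% without, so this order depends on the depth compared. Csf3r was found in 5 of 417 and 0 of 354 cells with Ly6g, and in 28 of 2309 and 19 of 1522 cells without. Under TG_DSS, where neutrophil-like cells were most numerous, another neutrophil transcript was in 10 of 14 and 6 of 10 cells with Ly6g and in 88 of 114 and 44 of 61 without. Most of these 128 and 71 TG_DSS cells were mixed droplets, since only 32 and 23 colonocyte-like cells under this tag were not mixed. The part of mixed droplets in these shares was not tested. In untagged cells another neutrophil transcript was in 13.2% and 17.8% of cells with Ly6g and in 11.6% and 18.4% of cells without.

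The split was also made by the number of neutrophil markers in a cell. Ly6g stood at 175 and 150 CPM in the 1367 and 627 colonocyte-like cells in which none of the 12 neutrophil markers was detected. It stood at 155 and 176 CPM in cells with 1 or 2 of them, and at 92.9 and 57.3 CPM in the 196 and 172 cells with 3 or more. The cells with 3 or more markers held 8039 and 9387 CPM of S100a9, and their Ly6g was the lowest of these sets in both batches. Depth differed between the sets, with medians of 23387 and 23160 UMIs at 3 or more markers and 13595 and 10023 at 0. The share of cells with a Ly6g UMI did not follow the level: it was 34.2% and 30.8% at 3 or more markers, against 27.8% and 35.4% at 0. Summed over whole cells without thinning, S100a8 and S100a9 were higher in cells with Ly6g in both batches. S100a9 was at 1435 and 1599 CPM in cells with Ly6g and at 607 and 1162 CPM in cells without. S100a8 was at 954 and 1003 CPM with Ly6g, against 356 and 689 CPM without. These sums rest on droplets with 3 or more markers, which hold most of the S100a9 UMIs (40920 of 42157 and 41641 of 42997).

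**Figure D3:**
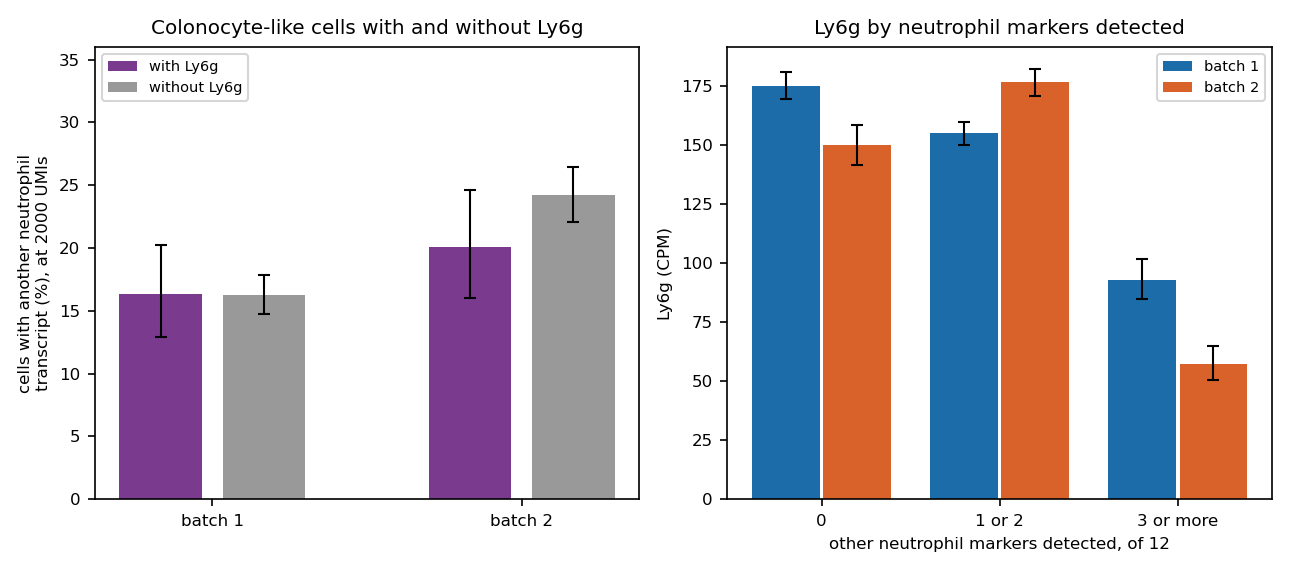
Left, the share of colonocyte-like cells with another neutrophil transcript at 2000 UMIs per cell, for cells with and without Ly6g (16.3% and 16.2% in batch 1, 20.1% and 24.2% in batch 2), with exact 95% binomial intervals. Right, Ly6g (CPM) in colonocyte-like cells by the number of other neutrophil markers detected, with exact 95% Poisson intervals: 175 and 150 CPM at 0 markers.

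Ly6g was unevenly spread among colonocyte-like cells and concentrated in recognisable sets of them. Of the cells, 71.6% and 66.1% held no Ly6g UMI, and the tenth of cells with most Ly6g held 85.9% and 77.6% of its UMIs. The highest cell held 282 UMIs in batch 1 and 198 in batch 2. In the 178 and 66 cells with at least 2 of Cxcl5, Nos2 and Duoxa2, genes for a neutrophil-attracting chemokine, a nitric oxide synthase and an oxidase maturation factor, Ly6g reached 1014 and 963 CPM. In the 684 and 648 cells with Aqp8 and Clca4a, markers of the surface epithelium, it was at 251 and 225 CPM. In the 1787 and 1038 cells of neither set it was at 60.8 and 100 CPM, so the order of the sets was the same in both batches. These sets were chosen with earlier results of these data known, and no test is given.

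The genes whose level differed most between colonocyte-like cells with and without Ly6g were then ranked, with mixed droplets kept. The ranking used the smaller of the log2 ratios of both batches, with 5 CPM added to each level, over 5625 genes. The 10 highest were Clca4b, Fxyd4, Atp12a, Ly6c1, 2310079G19Rik, Wfdc18, Tgm3, Saa1, Cxcl5 and Csta1. Clca4b, of the calcium-activated chloride channel regulator family, was at 491 and 266 CPM in cells with Ly6g and 43.6 and 21.6 CPM in cells without (log2 ratios 3.35 and 3.35). Saa1, an acute-phase protein, was at 3667 and 4979 CPM with Ly6g and 508 and 686 CPM without. Tgm3, a protein-crosslinking enzyme, was at 928 and 1222 CPM with Ly6g and 108 and 166 CPM without. Cxcl5 was at 90.3 and 36.2 CPM with Ly6g and 0.989 and 1.28 CPM without. Among the 5 lowest were Prap1, Ces1g, Slc51a and Cyp4b1. Slc51a, 1 of the markers that define colonocyte-like cells and a subunit of the bile acid exporter of the gut, was at 18.6 and 21.4 CPM with Ly6g and 77.1 and 91.8 CPM without. Of the 12 neutrophil markers none was among the 10 highest, but most were higher in cells with Ly6g. Their log2 ratios ran from 0.297 (Mmp8) to 1.62 (Retnlg) in batch 1. In batch 2 they ran from -0.0482 (Trem1) to 0.922 (Retnlg), with Cxcr2, Trem1 and Stfa2l1 below 0.

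Ly6c1 was the member whose presence differed by the largest factor between colonocyte-like cells with and without Ly6g. At 2000 UMIs per cell, Ly6c1 was in 23.0% and 12.5% of the 400 and 335 cells with Ly6g, against 2.17% and 2.16% of the 2115 and 1340 cells without. Read the other way, 66.7% of 138 and 59.2% of 71 cells with Ly6c1 held Ly6g, against 15.9% and 20.0% of all thinned colonocyte-like cells. Ly6m was in 34.8% and 36.1% of cells with Ly6g, against 10.2% and 19.7% of cells without. Ly6a was in 76.0% and 74.0% of cells with Ly6g, against 37.5% and 41.5% of cells without. Ly6d was rare, in 4.75% and 1.49% of cells with Ly6g and 0.615% and 0.448% of cells without. Ly6e was in 17.0% of cells with Ly6g and 10.6% of cells without in batch 1, but in 8.96% and 9.93% in batch 2. The direction for Ly6e thus differed between batches, whereas it was the same for the other members.

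The start regions of Ly6g and Ly6c1 are shown because both genes were found in the same colonocyte-like cells. Being found with Ly6c1 was not particular to Ly6g. Ly6c1 was in 11.7% and 8.46% of thinned colonocyte-like cells with Ly6a, against 0.706% and 0.344% of those without Ly6a. The 250 bases before the first start site of each come from RefSeq on GRCm38.p6, and capitals mark TATAAA and the C/EBP core TTGCNNAA, searched on both strands.
Ly6g, chr15:75155011-75155260, plus strand: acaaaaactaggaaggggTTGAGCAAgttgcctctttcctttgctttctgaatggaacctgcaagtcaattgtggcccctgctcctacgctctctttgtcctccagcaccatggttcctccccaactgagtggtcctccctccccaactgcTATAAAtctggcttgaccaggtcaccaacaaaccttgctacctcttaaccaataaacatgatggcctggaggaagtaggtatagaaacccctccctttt
Ly6c1, chr15:75048838-75049087, minus strand: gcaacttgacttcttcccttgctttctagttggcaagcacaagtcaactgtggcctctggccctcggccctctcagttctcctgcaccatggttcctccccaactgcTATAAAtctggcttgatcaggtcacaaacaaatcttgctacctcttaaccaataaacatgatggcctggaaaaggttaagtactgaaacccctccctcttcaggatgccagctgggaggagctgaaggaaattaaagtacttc
Over windows of 300 bases (250 before and 50 after the start), Ly6g and Ly6c1 were identical at 213 of 252 aligned bases (84.5%), and their longest shared run was 37 bases. The first Ly6c2 window matched that of Ly6g at 80.7% and that of Ly6c1 at 78.2% of aligned bases. At the second start sites Ly6c1 matched Ly6c2 at 89.3%, Ly6g matched Ly6c2 at 86.0% and Ly6g matched Ly6c1 at 87.0%, so the likeness was not particular to Ly6g and Ly6c1. TATAAA lay 99 bases before the Ly6g start and 143 bases before the Ly6c1 start, and 13.6% of 32544 such windows hold it. TTGCNNAA, the core bound by C/EBP factors, lay 232 bases before the Ly6g start and is in 10.8% of windows. The Ly6c1 and Ly6c2 windows did not hold TTGCNNAA. The windows of Ly6g and Ly6c1 held neither AGATAA, which GATA factors bind (in 11.2% of windows), nor TTTATG, which CDX factors bind (11.9%). The interferon response element, searched as GAAA repeated after 2 free bases, was not in these windows either (3.45%). A match is a match of letters and not a measured binding site.

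Ly6m was the member most restricted to colonocyte-like cells, at 132 and 272 CPM there. Goblet-like cells followed at 16.9 and 22.4 CPM, and leukocyte classes had 23.3 CPM or less. Neutrophil-like cells held 7.78 and 3.11 CPM, below the 65.9 and 100.0 CPM of free RNA. Ly6m reached 818 and 1222 CPM in cells with at least 2 of Cxcl5, Nos2 and Duoxa2, 310 and 710 CPM in cells with Aqp8 and Clca4a, and 15.5 and 29.6 CPM in neither. Both named sets lay above the rest in each batch.

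Ly6d had a leukocyte pattern with a small epithelial part. It was at 961 and 1791 CPM in 24 and 19 B-like cells and at 887 and 394 CPM in 5 and 34 plasma-like cells, the antibody-secreting descendants of B cells. The dendritic-like value of 384 and 40.3 CPM rested on 2 of 16 and 1 of 48 cells. Colonocyte-like cells held 18.2 and 12.8 CPM, and these UMIs lay in only 3.06% and 1.94% of cells, with up to 91 and 166 UMIs in 1 cell. Neutrophil-like cells held 0 and 1 Ly6d UMIs, against 10.9 and 9.10 CPM in free RNA. In the Cxcl5, Nos2 and Duoxa2 set Ly6d was at 138 and 194 CPM, against 6.63 and 2.44 CPM in colonocyte-like cells of neither set.

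Ly6e was found in all 14 classes in both batches, as was Ly6a. The highest levels were 1563 and 1114 CPM in 11 and 22 endothelial-like cells, which line vessels. Monocyte-like cells (772 and 677 CPM) and B-like cells (618 and 791 CPM) came next and overlapped each other. Macrophage-like, T and innate lymphoid-like and plasma-like cells overlapped in turn, between 241 and 606 CPM. Neutrophil-like cells were lowest of the leukocytes at 91.8 and 112 CPM. Among the 3 most numerous epithelial classes the order was goblet-like cells at 292 and 367 CPM, crypt base and transit-amplifying-like cells at 137 and 128 CPM and colonocyte-like cells at 78.8 and 72.5 CPM, without overlap. Ly6e was thus low in the epithelial class where Ly6g and Ly6m were high.

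Ly6a was highest outside both epithelium and leukocytes, at 2694 and 2430 CPM in fibroblast-like cells and 3330 and 1209 CPM in endothelial-like cells. Colonocyte-like cells held 775 and 896 CPM, the most of any epithelial class, and 71.1% and 72.1% of them held a UMI. Goblet-like cells held 253 and 239 CPM and crypt base and transit-amplifying-like cells 224 and 101 CPM. Among leukocytes, plasma-like cells had 779 and 537 CPM and neutrophil-like cells 27.5 and 55.6 CPM, against 390 and 419 CPM in free RNA. In the Cxcl5, Nos2 and Duoxa2 set Ly6a reached 3428 and 3350 CPM, above the 761 and 801 CPM of the Aqp8 and Clca4a set and the 529 and 792 CPM of neither.

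Ly6c1 goes against the label of a gene of epithelium and leukocytes. It was highest in endothelial-like cells (3126 and 1190 CPM) and fibroblast-like cells (639 and 775 CPM), and at 4.46 CPM or less in every leukocyte class. Monocyte-like cells, often recognised by the Ly6C antigen, held 3.19 and 1.72 CPM of Ly6c1 and 262 and 307 CPM of its paralog Ly6c2. In colonocyte-like cells Ly6c1 was at 66.2 and 45.9 CPM, in 13.6% and 12.4% of cells. Within them it reached 563 and 455 CPM in the Cxcl5, Nos2 and Duoxa2 set, against 25.5 and 30.7 CPM in neither set, while Ly6c2 had 0.0550 and 0.279 CPM in the untagged colonocyte-like cells. Under TG_DSS, in 32 and 23 colonocyte-like cells, Ly6c2 was at 5.51 and 205 CPM (3 and 66 UMIs).

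**Figure D4:**
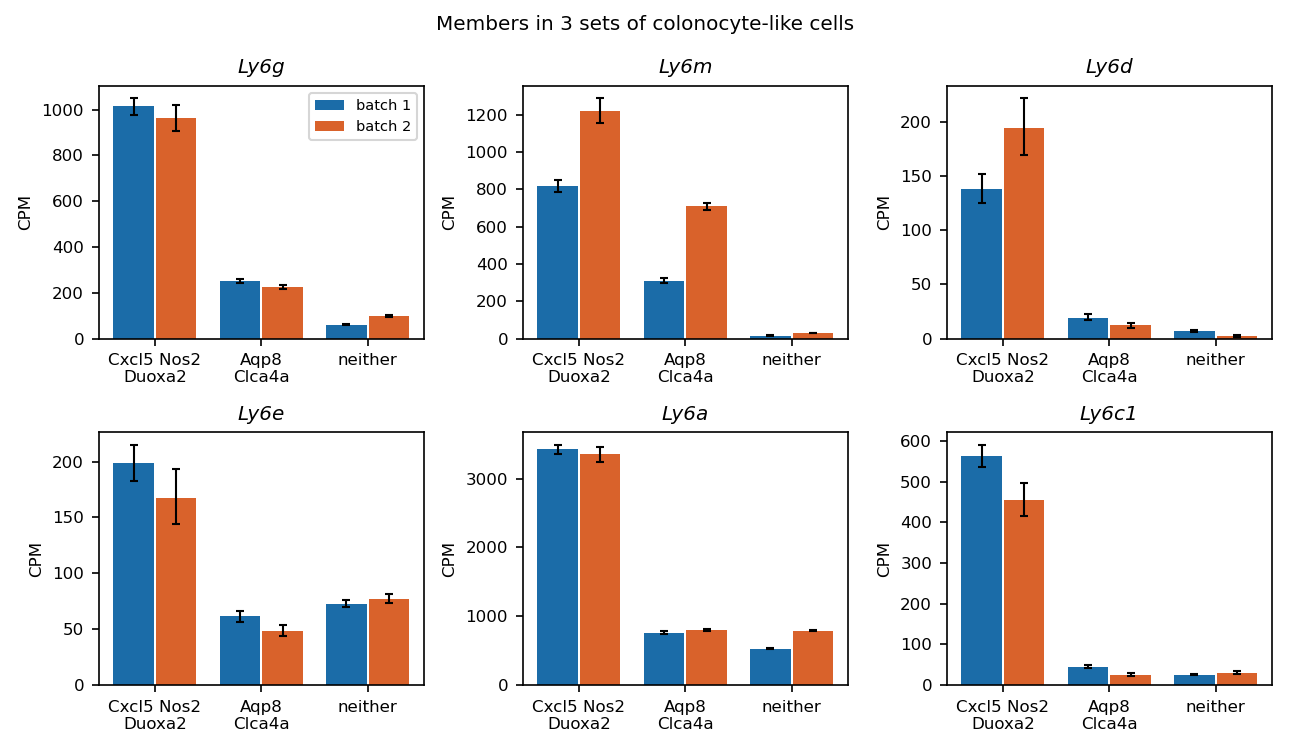
Level of each member (CPM) in colonocyte-like cells with at least 2 of Cxcl5, Nos2 and Duoxa2, with Aqp8 and Clca4a, or in neither set, by batch, with exact 95% Poisson intervals. In both batches the first set is the highest for all 6 members, for Ly6g at 1014 and 963 CPM.

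The genes with the most similar pattern were ranked by Pearson's r of log2(CPM + 1) over 24 sums of 14 classes and 2 batches, among 12270 genes. The sums share libraries and free RNA, so r is a description. Ly6g was closest to 4732465J04Rik (r = 0.82), Dhrs9, a retinol dehydrogenase (0.81), and Lamb3, a laminin chain (0.76). Ly6m was closest to Sprr2b, of the cornified envelope (0.91), and Csta1 (0.87). Ly6d was closest to Oosp1 (0.86), Mzb1 of plasma cells (0.82) and Cd79a of the B cell receptor (0.81). Ly6e was closest to Abcb1b (0.85) and Ly6a to Plbd2 (0.71). Ly6c1 was closest to Cavin3, a coat protein of caveolae (0.92). Between members the closest pair was Ly6a and Ly6c1 (0.69), followed by Ly6g and Ly6m (0.65).

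Between tags, Ly6g was the member called in epithelial-like cells. Under TG_DSS it was at 65.6 and 39.6 CPM (54 and 53 cells), against 24.0 and 8.88 CPM under Ctrl_DSS (294 and 375 cells). It was higher in TG_DSS in both batches (log2 fold change 1.74 ± 0.31, SE; edgeR quasi-likelihood adjusted p = 0.0332). All 6 members passed the filter and 1 was called, beside 2.06% of 11531 genes tested. At an unadjusted p under 0.05 there were 3 members, beside 17.9% of genes, and DESeq2 called 2 members among 466 genes. The third was Ly6e, at 118 and 179 CPM under TG_DSS and 343 and 356 CPM under Ctrl_DSS (log2 fold change -1.22 ± 0.42, edgeR adjusted p = 0.173). Ly6m was at 102 and 94.7 CPM under TG_DSS and 26.5 and 47.3 CPM under Ctrl_DSS (log2 fold change 1.43 ± 0.32, edgeR adjusted p = 0.0623, DESeq2 adjusted p = 0.0143). With mixed droplets kept the Ly6m log2 fold change was 0.21 (adjusted p = 0.876), and it was 0.84 without the Ctrl_DSS sum of batch 1 and 2.06 without that of batch 2. The makeup of the tagged epithelium also differed: colonocyte-like cells were 59.3% and 43.4% of it under TG_DSS and 29.6% and 39.2% under Ctrl_DSS. The part of this makeup in the result was not tested. Summed neutrophil markers stood at 55.8 and 251 CPM under TG_DSS and 40.4 and 60.1 CPM under Ctrl_DSS, and their part in the result was not tested. In colonocyte-like cells alone, Ly6g was at 101 and 68.3 CPM under TG_DSS and 54.3 and 22.1 CPM under Ctrl_DSS (log2 fold change 1.18, edgeR adjusted p = 0.398). The call was also lost without the batch term (adjusted p = 0.295), with at most 10% mitochondrial UMIs (0.184) and with mixed droplets kept (0.0513). It was lost without the TG_DSS sum of batch 1 (0.0679) or 2 (0.160) and without the Ctrl_DSS sum of batch 1 (0.152) or 2 (0.250).

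In the other comparisons of epithelial-like cells 0 of 6 members were called by edgeR. For TG_DSS against TG_WT, where 0.00867% of genes were called, 0 members had an unadjusted p under 0.05, beside 8.12% of genes. DESeq2 called 72 genes there and 0 members. Ly6g was at 65.6 and 39.6 CPM under TG_DSS and 91.7 and 22.6 CPM under TG_WT, so the batches differed in direction. For TG_WT against Ctrl_WT (0.0173% called), 2 members had an unadjusted p under 0.05, beside 5.00% of genes, and DESeq2 called 8 genes and 0 members. The 2 members were Ly6g, at 91.7 and 22.6 CPM under TG_WT and 36.4 and 10.1 CPM under Ctrl_WT (edgeR adjusted p = 0.703), and Ly6m (adjusted p = 0.961). For Ctrl_DSS against Ctrl_WT (0.225% called), 2 members had an unadjusted p under 0.05, beside 14.5% of genes, and DESeq2 called 1 member among 281 genes. These comparisons share tags and are not independent of each other.

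Ly6e was not called by edgeR between Ctrl_DSS and Ctrl_WT, but its sums lay apart. It was at 343 and 356 CPM in epithelial-like cells under Ctrl_DSS, against 135 and 51.6 CPM under Ctrl_WT, without overlap. The log2 fold change was 1.79 ± 0.42 (SE), with an adjusted p of 0.118 by edgeR and 0.00881 by DESeq2. Goblet-like cells, where Ly6e is high, were 51.4% and 48.8% of the epithelium under Ctrl_DSS and 29.8% and 20.4% under Ctrl_WT, and their part in the result was not tested. Within goblet-like cells Ly6e was at 526 and 582 CPM under Ctrl_DSS and 253 and 94.0 CPM under Ctrl_WT, the last from 18 UMIs in 11 cells. Within colonocyte-like cells it was at 125 and 100.0 CPM under Ctrl_DSS and 62.6 and 42.2 CPM under Ctrl_WT (log2 fold change 1.03, edgeR adjusted p = 0.573). The log2 fold change without the Ctrl_WT sum of batch 1 was 2.95 and without that of batch 2 it was 1.10. The other member with an unadjusted p under 0.05, Ly6d, rested on 69 UMIs in Ctrl_WT cells of batch 1, against 0 in batch 2.

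Ly6a levels differed widely between batches of 1 tag. In epithelial-like cells it was at 446 and 832 CPM under TG_DSS, 360 and 1598 under TG_WT, 278 and 384 under Ctrl_DSS and 489 and 153 under Ctrl_WT. The tags overlapped, and the spread between batches of TG_WT exceeded any difference between tag means. Ly6c1 was at 14.2 and 17.2 CPM under TG_DSS, 26.9 and 44.7 under TG_WT, 8.53 and 4.56 under Ctrl_DSS, and 30.7 and 0 under Ctrl_WT. Most colonocyte-like cells carried no called tag (2261 of 2649 and 1426 of 1752). In those, Ly6g was at 178 and 213 CPM, above every tagged set of colonocyte-like cells in its batch (173 or less in batch 1, 68.3 or less in batch 2).

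**Figure D5:**
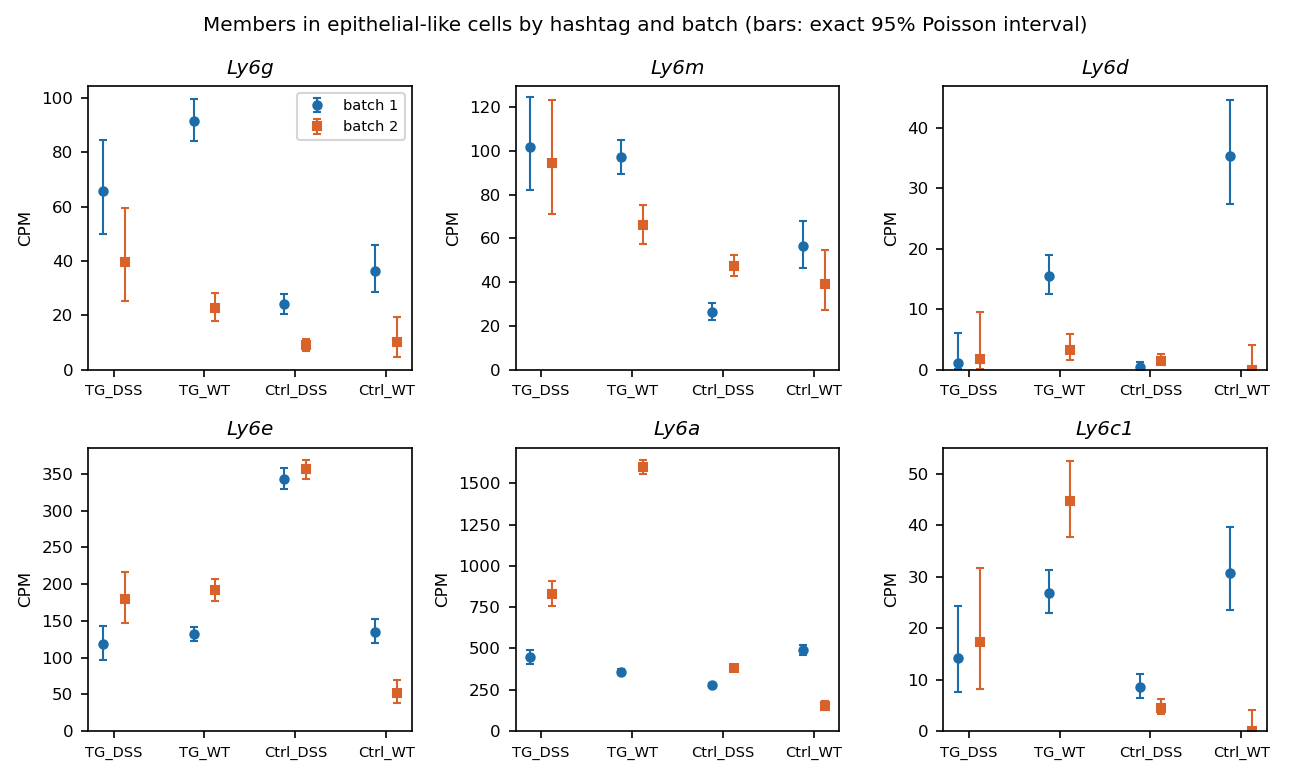
Level of each member (CPM) in epithelial-like cells of each tag, with circles for batch 1, squares for batch 2 and bars for exact 95% Poisson intervals. Ly6g lies at 65.6 and 39.6 CPM under TG_DSS and 24.0 and 8.88 CPM under Ctrl_DSS, and Ly6e at 343 and 356 CPM under Ctrl_DSS and 135 and 51.6 CPM under Ctrl_WT.

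In neutrophil-like cells Ly6a fell under TG_DSS relative to TG_WT, while Ly6g was not called. Ly6a was at 23.4 and 17.3 CPM under TG_DSS (537 and 479 cells), against 213 and 113 CPM under TG_WT (13 and 258 cells), without overlap. The log2 fold change was -2.63 ± 0.55 (SE, edgeR adjusted p = 0.00232, DESeq2 adjusted p = 0.00598). This fit held 1 sum per tag and batch, so the edgeR p-value rests almost wholly on a spread shared over all genes. The spread of Ly6a itself hardly enters. Of the members 3 passed the filter and 1 was called, beside 0.157% of 5085 genes tested. The TG_WT value of batch 1 rests on 7 UMIs, and within batches the log2 ratios were -3.19 and -2.70. Summed monocyte markers were at 226 and 386 CPM under TG_DSS and 213 and 922 CPM under TG_WT. Summed colonocyte markers were at 644 and 624 CPM under TG_DSS and 1246 and 644 CPM under TG_WT. The part of either list in the result was not tested. With mixed droplets kept the log2 fold change was -1.87 (adjusted p = 0.331). Ly6g was at 132 and 111 CPM under TG_DSS and 0 and 131 CPM under TG_WT, where 0 UMIs in 13 cells allow up to 112 CPM.

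In macrophage and monocyte-like cells 2 members passed the filter and edgeR called 0, beside 0% of 5724 genes tested. Before adjustment 41 genes and 0 members had p under 0.05, and DESeq2 called 0. Ly6e was at 699 and 492 CPM under TG_DSS and 112 and 718 CPM under TG_WT, the low value from 12 UMIs in 17 cells. Ly6a was at 531 and 104 CPM under TG_DSS and 0 and 387 CPM under TG_WT. In both genes the batches went in opposite directions.

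The interferon response list of 12 genes was read beside Ly6a and Ly6e, which interferon is known to induce. In epithelial-like cells, TG_DSS against Ctrl_DSS, 1 of 12 was called, beside 2.06% of all genes tested. It was Ifi27l2a, which was higher (log2 fold change 2.45 ± 0.34, edgeR adjusted p = 0.0187). The median of the list was 0.97, against 0.00 for all genes tested. Of the list 11 genes were above 0, beside log2 fold changes of 0.94 for Ly6a and -1.22 for Ly6e (edgeR adjusted p = 0.524 and 0.173). For TG_DSS against TG_WT, 0 of 12 were called and 9 were above 0, and the median was likewise 0.97, beside log2 fold changes of -0.58 for Ly6a and -0.18 for Ly6e (edgeR adjusted p = 0.869 and 0.944). For Ctrl_DSS against Ctrl_WT, where Ly6e was highest, 0 of 12 were called and the median was -0.17. In neutrophil-like cells, TG_DSS against TG_WT, 1 of 10 tested was called, beside 0.157% of all genes tested. It was Ifit1, which was lower (log2 fold change -2.54 ± 0.56, edgeR adjusted p = 0.00671). The limit given for the Ly6a p-value of this fit applies to that of Ifit1 as well. The list's median was -0.80, against 0.11 for all genes.

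Of 37 other genes of the Ly6 and uPAR family, 11 were tested in epithelial-like cells. For TG_DSS against Ctrl_DSS, 1 was called higher and 1 lower, beside 2.06% of all genes tested. The median log2 fold change of the 11 genes was 0.49, against 0.00 for all genes tested. Cd177, a surface protein best known from neutrophils, was lower (log2 fold change -1.95 ± 0.37, edgeR adjusted p = 0.0398). Goblet-like cells, where Cd177 is highest, were 18.5% and 22.6% of the epithelium under TG_DSS and 51.4% and 48.8% under Ctrl_DSS, and their part in the result was not tested. Ly6c2 was called higher, from 4 and 67 UMIs under TG_DSS and 0 and 0 under Ctrl_DSS, so 1 sum carries it. In the other comparisons of epithelial-like cells 0 of these genes were called by edgeR, with medians of -0.53 for TG_DSS against TG_WT, 0.38 for TG_WT against Ctrl_WT and 0.08 for Ctrl_DSS against Ctrl_WT.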

How the data were processed

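The authors' deposited counts are raw UMI counts per gene and barcode, with the hashtag counts in the same tables. Per the submitters' processing notes they were made with Cell Ranger 7.0.0 on mm10. Cells were called by depth or, below that, against free RNA (barcodes of up to 100 UMIs, false discovery rate 0.01, at least 500 UMIs), and kept if they had 250 genes or more and no more than 25% of UMIs from mitochondrial genes. Totals were 133919905 and 95408149 UMIs. No doublet caller was run; droplets with 3 markers of lists from several compartments were left out as mixed. Tags were called per batch with a 2-component Gaussian mixture, and levels by tag rest on these calls. A highest-tag rule, needing a leading tag 3-fold over the runner-up, was an alternative. Of TG_DSS cells, 599 of 1245 and 1090 of 1314 kept their tag under this rule in batches 1 and 2. The counts were 428 of 521 and 1244 of 1263 for TG_WT, and 179 of 407 and 231 of 492 for Ctrl_DSS. For Ctrl_WT they were 86 of 177 and 66 of 92. Sums of UMI counts over the cells of a class, tag and batch (at least 10 cells) went into edgeR 4.0.16 under R 4.3.3 (quasi-likelihood, TMM, filterByExpr, terms for tag and batch, Benjamini-Hochberg over all genes at 0.05), with DESeq2 1.42.0 as an alternative. All tags entered the epithelial fits, but only TG_DSS and TG_WT those of neutrophil-like and of macrophage and monocyte-like cells. Batch is the replicate number and pairs the sums, since the tags of a batch share 1 library. The SE is the log2 fold change divided by the root of its F statistic. The test was checked on simulated counts of the epithelial-like design only, without a batch effect. That check does not cover the fits of neutrophil-like and of macrophage and monocyte-like cells. Members, gene lists and sets were chosen with earlier results of these data known. Named genes are the family list, the interferon list, the 3 most similar genes per member and the 10 highest and 5 lowest beside Ly6g, of which 1 of the lowest is not reported here.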

Additional observations from a re-analysis of the deposited data

How the results depend on the processing

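Counts of genes called between tags depended on the processing, and of 52 levels by class recomputed in both batches 5 moved by more than the spread between batches, which can be wide (132 to 272 CPM for Ly6m in colonocyte-like cells, 1190 to 3126 CPM for Ly6c1 in endothelial-like cells). With mixed droplets kept Ly6g was at 155 CPM in colonocyte-like and 105 CPM in neutrophil-like cells, and it ranged from 166 to 170 and from 117 to 132 CPM between batches. The share with another neutrophil transcript, with minus without Ly6g, was -2.03 percentage points, ranged from -4.12 to 0.0662 between batches, and was 2.03 at 4000 UMIs per cell and 1.48 with mixed droplets left out, so its sign is not settled. Ly6g per 1000 S100a9 UMIs was 152 (118 to 185 between batches), 2846 in untagged cells, 245 without cells over several hashtag thresholds and 4773 without mixed droplets. In epithelial-like cells, TG_DSS against TG_WT gave 1 gene called, 72 with DESeq2, 400 without a filter, 0 with no replicate block, 41 with the highest-tag rule, 2 with at most 10% mitochondrial UMIs, 0 with mixed droplets kept, 31 in colonocyte-like cells and 0 (without TG_DSS replicate 1) to 44 (without TG_WT replicate 2) when 1 sum was left out. TG_WT against Ctrl_WT gave 2 (both higher; 6 higher and 2 lower of 8 with DESeq2), 205 without a filter, 0 with no replicate block, 4 with the highest-tag rule, 4 at 10% mitochondrial UMIs, 0 with mixed droplets and 1 (without TG_DSS replicate 1 or 2) to 13 (without TG_WT replicate 1) when 1 sum was left out. Ctrl_DSS against Ctrl_WT gave 26, 281 with DESeq2, 689 without a filter, 7 with no replicate block, 48 with the highest-tag rule, 0 at 10% mitochondrial UMIs, 1 with mixed droplets, 2 in colonocyte-like cells and 3 (without Ctrl_DSS replicate 2) to 147 (without TG_WT replicate 1) when 1 sum was left out. TG_DSS against Ctrl_DSS gave 238, 466 with DESeq2, 1190 without a filter, 26 with no replicate block, 80 at 10% mitochondrial UMIs, 59 in colonocyte-like cells and 4 (without Ctrl_DSS replicate 2) to 414 (without TG_WT replicate 1) when 1 sum was left out. In neutrophil-like cells 8 were called (2 higher, 6 lower; 3 and 5 with DESeq2), 22 without a filter and 29 with no replicate block. In macrophage and monocyte-like cells 0 were called and 3 without a filter. The cause was not tested. The fits of neutrophil-like and of macrophage and monocyte-like cells held only TG_DSS and TG_WT sums, so that leaving out 1 sum left no residual degrees of freedom; fits with the other tags were not run. Where it left a tag with 1 sum, that sum was assumed to vary like the others. Settings with mixed droplets changed were chosen after seeing the data. Depth limits classes of few cells: 13 neutrophil-like cells under TG_WT in batch 1.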

Other observations

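Of the 35 other genes of the Ly6 and uPAR family in the count tables, 10 reached 20 CPM in a class in both batches. Lypd8, a secreted protein that keeps bacteria from the colon lining in mice, was at 8168 and 11091 CPM in colonocyte-like cells and 1551 and 1815 CPM in goblet-like cells. Plaur, the urokinase receptor, was at 2756 and 1760 CPM in neutrophil-like cells and 409 and 342 CPM in monocyte-like cells. Tuft-like cells, chemosensory cells of the epithelium, held Ly6g6f at 517 and 597 CPM and Ly6g6d at 228 and 291 CPM. Gpihbp1, which holds lipoprotein lipase on capillaries, was at 850 and 378 CPM in endothelial-like cells. Cd177 was at 104 and 134 CPM in goblet-like cells, against 34.8 and 46.6 CPM in neutrophil-like cells. Ly6g2, a neighbour of Ly6g, was at 20.9 and 23.0 CPM in colonocyte-like cells.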
